A study of Mus musculus with 15 samples.

Results

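The 480 autosomal windows of 100 kb with the highest 5hmC signal were examined in E14TG2a DNA. E14TG2a is a line of mouse embryonic stem cells. The windows were chosen by their 500-ng hmTOP-seq reads. Reads of both 500-ng replicates were summed, taken per CG of the window and divided by the median window of the same chromosome, and the top 2% were taken. This gave 480 of 24006 windows with at least 200 CGs, out of 24618 windows on the 19 autosomes, and the lowest chosen window had 4.32 times the median of its chromosome. The number of reads per CG relative to the median window of the chromosome is called the signal here, so that the median window of each chromosome has a signal of 1.

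All libraries came from DNA of the same unperturbed cell line, and no genotype or treatment differed between groups. In hmTOP-seq, beta-glucosyltransferase (BGT) placed an azide-carrying glucose on 5hmC, an oligonucleotide was attached to it, and sequencing reads started at the labeled cytosine. DNA inputs were 500, 50 and 5 ng with 2 technical replicates each, and every input had 2 control libraries made without BGT. uTOP-seq, in which unmodified CGs (uCGs) are tagged by a separate labeling reaction before the oligonucleotide is attached, was made from 300 ng of DNA in 3 replicates. Technical replicates share their DNA, so p-values measure the spread between libraries and not between cultures. Only DNA was sequenced, so the labeled cell type was not checked against expressed markers.

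In mammals, TET enzymes oxidize 5-methylcytosine to 5hmC, which can be a step in the removal of DNA methylation and can also persist. In embryonic stem cells 5hmC is known from gene bodies, enhancers and the borders of CG islands, whereas the islands themselves are mostly unmodified. A window with many reads per CG can hold many hydroxymethylated CGs, more 5hmC at each of them, or sequence that is present in more copies than the reference shows.

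Library totals ranged from 14884939 reads for a 5-ng replicate to 32502791 for a 500-ng replicate, and from 20120568 to 28412885 for uTOP-seq. The 6 control libraries had 3409 to 10072 reads. The chosen windows were deeply covered. The least covered one had 1735 and 1824 reads in the 50-ng replicates, 1157 reads in the shallower 5-ng replicate and 590 reads in the shallowest uTOP-seq replicate.

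The strongest short stretches of the leading windows are shown first, because they display which CGs carried the reads. In each of the 8 highest windows, the 120 bases around a CG with the most 50-ng reads outside untranslated regions were taken from GRCm38 (mm10), plus strand. Capitals mark CGs with a read in both 50-ng replicates.
Site 1, chr17:39848408-39848527: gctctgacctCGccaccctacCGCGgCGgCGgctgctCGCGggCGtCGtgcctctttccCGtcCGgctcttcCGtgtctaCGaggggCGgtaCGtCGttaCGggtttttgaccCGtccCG
Site 2, chr11:3193237-3193356: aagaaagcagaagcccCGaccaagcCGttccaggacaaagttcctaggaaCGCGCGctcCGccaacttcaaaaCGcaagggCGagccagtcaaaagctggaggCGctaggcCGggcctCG
Site 3, chr15:75086672-75086791: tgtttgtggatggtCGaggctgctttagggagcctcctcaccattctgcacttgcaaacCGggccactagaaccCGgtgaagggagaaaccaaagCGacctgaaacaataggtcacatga
Site 4, chr12:102654129-102654248: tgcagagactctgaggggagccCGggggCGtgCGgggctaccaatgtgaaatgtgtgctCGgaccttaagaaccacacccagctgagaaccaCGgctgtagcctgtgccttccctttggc
Site 5, chr10:127578560-127578679: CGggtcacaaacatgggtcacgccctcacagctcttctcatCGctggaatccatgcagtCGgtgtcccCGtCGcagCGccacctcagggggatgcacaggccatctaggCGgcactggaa
Site 6, chr6:125312787-125312906: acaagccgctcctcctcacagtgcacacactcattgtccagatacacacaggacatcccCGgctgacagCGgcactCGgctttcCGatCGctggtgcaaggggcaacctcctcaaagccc
Site 7, chr1:75429079-75429198: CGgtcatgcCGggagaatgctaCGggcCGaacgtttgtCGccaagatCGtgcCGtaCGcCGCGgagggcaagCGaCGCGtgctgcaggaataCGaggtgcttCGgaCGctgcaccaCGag
Site 8, chr3:101450973-101451092: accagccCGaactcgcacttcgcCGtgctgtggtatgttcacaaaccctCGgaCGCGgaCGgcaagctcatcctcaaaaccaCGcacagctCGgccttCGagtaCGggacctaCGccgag

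Site 1 lay in a CG island inside an annotated rRNA copy and the lincRNA Gm42418, and all 19 of its CGs were covered. It held 1670 and 1459 reads in the 50-ng replicates, 3015, 2722 and 2311 reads in the uTOP-seq replicates and 21 reads in the 6 control libraries together. Site 2 lay in a CG island where the annotations of Sfi1, named for a spindle-assembly protein, and Drg1, a GTP-binding protein gene, overlap, and all 11 of its CGs were covered. It held 1037 and 1007 reads at 50 ng.

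Site 3 had only 4 CGs and lay outside annotated genes and outside soft-masked repeats. These 4 CGs held 1658 and 1564 of the 50-ng reads, which was 39.97% of all 50-ng reads of the 100-kb window. Sites 4 to 8 held smaller shares of the 50-ng reads of their windows, 1.41% to 3.57%. Site 4 was intronic in Itpk1, site 5 was exonic in Lrp1, site 6 in Ltbr, site 7 in Speg and site 8 in Igsf3, and site 8 was the only one of the 5 in a CG island. No control read fell on sites 4 to 8.

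Site 6, in the gene of the lymphotoxin beta receptor, was the only one of the 8 without reads in a 5-ng replicate. It held 141 and 112 reads at 500 ng and 93 and 78 at 50 ng, but 0 and 53 at 5 ng. At the scale of the 100-kb window around it, the 5-ng replicates were close, with signals of 5.71 and 5.52.

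Across all chosen windows, the signal that selected them also appeared in the libraries that were not used for the choice. The median window had a signal of 4.37 ± 0.0537 (SD, n = 2) at 50 ng and 4.07 ± 0.0207 (SD, n = 2) at 5 ng, against medians of 0.974 and 0.975 in the other windows. At 500 ng, which made the choice, it was 4.79 ± 0.104 (SD, n = 2), so the lower values at 50 and 5 ng follow a selection on the 500-ng reads and were not tested. Every chosen window was above 2 in both 50-ng and both 5-ng replicates.

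By library, the median signal was 4.40 and 4.33 in the 50-ng replicates and 4.06 and 4.09 in the 5-ng replicates. The lowest value of any chosen window was 3.40 and 3.47 in the 50-ng replicates, and 3.0003 and 2.58 in the 5-ng replicates. The ranges of chosen and other windows overlapped. The highest of the other windows reached a mean of 4.34 at 50 ng, close to the median chosen window, and 4.68 at 5 ng, above the median chosen window. The chosen windows made up 2.0% of the windows and held 3.47% of the CGs. They held 8.73% ± 0.0939 (SD, n = 2) of the reads at 50 ng and 8.49% ± 0.0599 (SD, n = 2) at 5 ng. Ranked by each library alone, 421 and 417 of the 480 were in the top 2% in the 50-ng replicates and 330 and 336 in the 5-ng replicates.

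**Figure D1:**
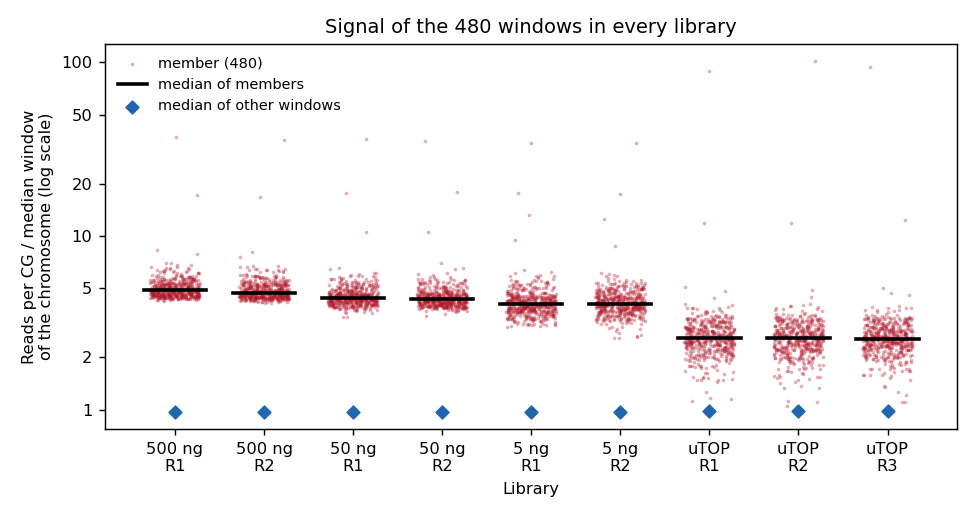
Signal (reads per CG over the median window of the chromosome, log scale) of the 480 chosen windows in every library, with their median as a bar and the median of the other windows as a diamond. Member medians fall from 4.87 and 4.72 in the 500-ng libraries that made the choice to 4.06 and 4.09 at 5 ng and to 2.56 to 2.58 in uTOP-seq, and the windows with the highest signals stand apart in every hmTOP-seq library.

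Replicates were closer to each other at 50 ng than at 5 ng in these windows. The log2 ratio of replicate 1 to replicate 2 had an SD of 0.083 at 50 ng and 0.20 at 5 ng over the 480 windows, beside 0.034 and 0.042 for counting error alone. At 50 ng, 478 windows had replicates within 1.2-fold and at 5 ng 386 did. Counting error is a lower limit here, as reads carried no molecular identifiers.

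The uCG signal was high in the same windows. Their median was 2.57 ± 0.0132 (SD, n = 3), against 0.986 in the other windows, and replicate medians were 2.58, 2.58 and 2.56. All 480 windows were above the chromosome median in all 3 uTOP-seq replicates, and they held 6.67% ± 0.0372 (SD, n = 3) of the uTOP-seq reads. Of the 480 windows with the highest uCG signal, 160 were chosen windows (33.3%), against 2.0% of all windows. Across all 24006 windows, 50-ng and uCG signals had a Spearman correlation of 0.89, and across the 480 it was 0.23. These windows share their libraries, CG density and any copy number, so the correlations are a description only.

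To ask whether the chosen windows took a larger share of 5hmC reads than of uCG reads, 50-ng and uTOP-seq window counts were fitted with edgeR across the 23664 windows in which every fitted library reached 10 reads. The 500-ng libraries that chose the windows were left out. Over all windows, however, the 500-ng signal had Spearman correlations of 0.99 with 50 ng, 0.97 with 5 ng and 0.89 with uCG. The 50- and 5-ng libraries repeat the assay that made the choice, so calls of higher 5hmC follow in part from it. The counts are therefore a description. By the quasi-likelihood test at an adjusted p of 0.05, 467 of the 480 windows (97.3%) were called higher in 5hmC, against 36.1% of all windows. In the other direction, 2 of the 480 were called lower, against 37.8% of all windows. The median log2 fold change was 0.68 in the chosen windows and -0.03 in all windows tested. With the 5-ng libraries in place of the 50-ng libraries, 419 were called higher, against 24.4% of all windows, and 4 lower, against 19.7%.

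**Figure D2:**
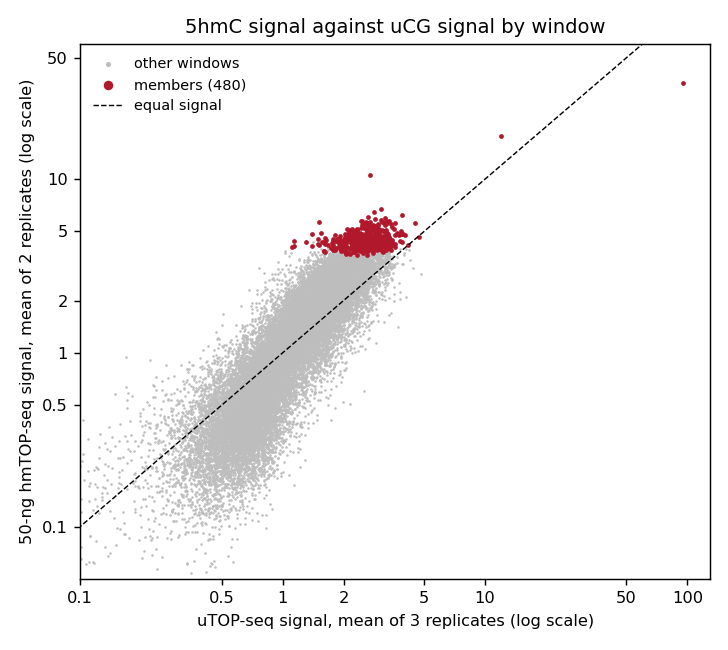
Mean 50-ng signal against mean uTOP-seq signal of each 100-kb window on log scales, with the 480 chosen windows in red and the other windows in gray. Most chosen windows lie above the dashed line of equal signal, and the window with the highest uTOP-seq signal, 94.7, lies below it.

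The window on chromosome 17 with the rRNA copy was the highest at every input and was far above the rest. Its signal was 36.2 and 35.4 in the 50-ng replicates, 34.5 and 34.4 in the 5-ng replicates and 89.2, 101 and 93.6 in the uTOP-seq replicates. It was therefore one of the 2 chosen windows called lower in 5hmC than in uCG, with a log2 fold change of -1.27 ± 0.031 (SE) and an adjusted p of 5.85e-14 in edgeR. The window overlapped no protein-coding gene and also held 37 and 50 reads in the 500-ng control libraries. The window on chromosome 11 with Sfi1 had 17.7 and 17.8 at 50 ng, 17.7 and 17.5 at 5 ng and 11.8 to 12.3 in uTOP-seq, so that all hmTOP-seq and uTOP-seq libraries were high together. Whether copies missing from the reference contribute in these windows was not tested.

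The third window, on chromosome 15, overlapped Ly6c1, the gene of a surface antigen of blood cells, over 4.81 kb. Its signal was 8.36 and 8.06 in the 500-ng replicates, 10.5 in both 50-ng replicates, and 13.2 and 12.5 in the 5-ng replicates, while uTOP-seq gave 2.58 to 2.89. It was higher in 5hmC than in uCG by a log2 fold change of 1.75 ± 0.047 (SE; edgeR, adjusted p = 9.11e-14). Its 10 strongest CGs held 92.0% of its 500-ng reads, beside a median of 7.22% over the chosen windows, and whether its sequence has copies missing from the reference was not tested. Besides it, the only chosen window in which the 10 strongest CGs held over 20% was that of the predicted genes Gm10801 and Gm10800 on chromosome 2, at 61.0%.

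Below these, the ranking ran through gene windows whose signals were close to each other. Windows 4 to 20 had 500-ng signals of 7.83 down to 6.22, and were between 5.34 and 7.01 in every 50-ng replicate. The window of Itpk1, an inositol phosphate kinase, came next with 6.43 and 7.01 at 50 ng, 6.09 and 5.72 at 5 ng and 3.003 to 3.14 in uTOP-seq. The window of Lrp1, an endocytic receptor of the LDL receptor family, had 6.09 and 5.601 at 50 ng and 6.39 and 5.22 at 5 ng. The window of Scnn1a, the alpha subunit of the epithelial sodium channel, had 6.52 and 6.42 at 50 ng and 5.71 and 5.52 at 5 ng. The 50-ng replicates of Itpk1 and Scnn1a overlapped, so their order at this input was not beyond the spread of replicates.

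The next windows, named by their longest protein-coding overlap, were Speg, a striated muscle kinase (5.37 and 5.81 at 50 ng), Igsf3, an immunoglobulin superfamily membrane protein (6.15 and 5.38), and Ccdc85c (5.74 and 5.63). Next were Gm20388, whose annotation overlaps Gse1 (5.42 and 5.34), Sbno2 (5.595 and 5.42), Ski, a corepressor of SMAD proteins (5.88 and 5.97), and Plec, which encodes the cytolinker plectin (5.57 and 5.41). Windows 14 to 20 were named by Plekha6, Manba, Acvr1b, Sema4a, Arhgef2, Nfam1 and Stpg1, with mean 50-ng signals of 5.598 to 6.05. All 17 of these windows, Itpk1 to Stpg1, were called higher in 5hmC than in uCG by edgeR, with log2 fold changes of 0.41 for Sema4a to 1.23 for Gm20388. The fit does not scale by chromosome. Median windows had 2.26 reads per CG at 500 ng and 2.54 in uTOP-seq on chromosome 8, which holds Gm20388. On chromosome 3, which holds Sema4a, they had 1.33 and 2.17, and the part of these levels in the order was not tested.

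At the boundary, the 5 last windows taken had 500-ng signals of 4.322 to 4.325 and the 5 next windows 4.319 to 4.321. Mean 50-ng signals were 3.90 to 4.21 inside and 3.73 to 4.12 outside, so the groups overlapped. The last windows taken were named by Lrrc15, 2900026A02Rik and Extl1 or overlapped no protein-coding gene, and those left out by Mapk1ip1l, Arhgef10l, Fhdc1 and Errfi1 or by none.

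The chosen windows were CG-rich. Their median was 14.3 CGs per kb against 7.67 in the other windows, and their GC content 49.3% against 41.3%. Soft-masked repeats covered 24.3% of the sequence at the median, against 31.9%. The number of CGs is the divisor of the signal, so this is a description. Of the 10% of windows with the highest CG density, 318 of 2401 (13.2%) were chosen, and of the lower 50% of windows 2 were. The 10% of windows with the highest GC content held 359 of the 480, and the 10% with the highest mean uCG signal held 409.

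Chosen windows and others were next compared at like CG density. In the 10% with the highest density, the chosen windows had a median of 15.9 CGs per kb and the other 2083 windows 14.8. Their median 50-ng signals were 4.38 and 2.62, and their uCG signals 2.63 and 2.01. The ratio of the 50-ng to the uCG signal had a median of 1.71 in the chosen windows and 1.30 in the others. Within the 480, 50-ng signal and CG density had a Spearman correlation of -0.0095, and GC content gave -0.050. Over all 24006 windows the values were 0.81 and 0.80. The choice narrows the range of signal in the 480, so their values do not show that density and signal are unrelated.

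**Figure D3:**
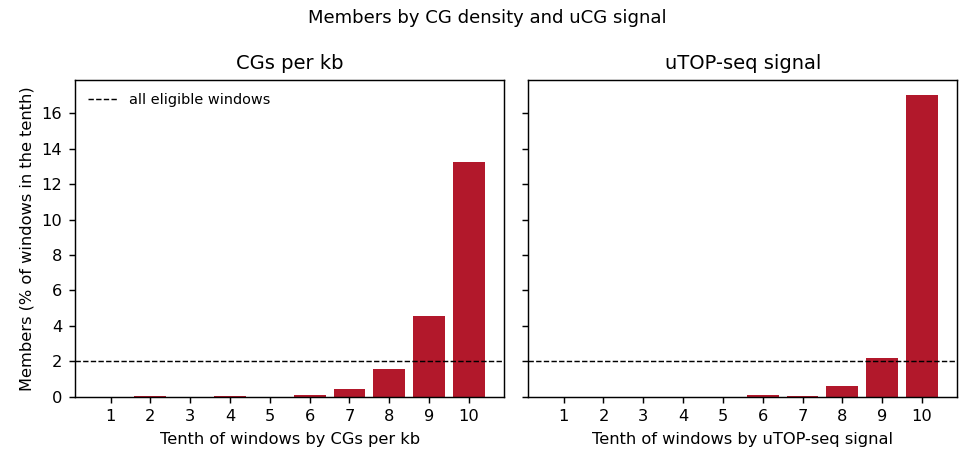
Share of windows that were chosen (%) in each of 10 equal bins of the 24006 windows, ordered by CGs per kb and by mean uTOP-seq signal, with the dashed line at the share over all windows, 2.0%. The bin of highest CG density reaches 13.2% and that of highest uTOP-seq signal 17.03%, and the lowest 5 bins hold 2 and 0 chosen windows.

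The extremes of density were of different kinds. The windows with the fewest CGs were the 2 in which a few CGs dominated, with Gm10801 at 5.00 and Ly6c1 at 6.56 CGs per kb, and a pair of windows without a protein-coding gene had 8.91 and 9.10. The window of Gm10801 and Gm10800 had 4.90 and 5.61 in the 500-ng, 5.92 and 6.52 in the 50-ng and 9.55 and 8.81 in the 5-ng replicates, so both replicates were higher at each lower input, as in the window of Ly6c1. It also held 183 control reads over the 6 libraries, and missing copies were not tested here either.

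Among the densest were the windows of Apc2 with Mbd3 (26.5 CGs per kb), of the Hoxa genes (26.4), Pip5k1c (24.2), Lrp1 (23.4) and the Gm20388 end with Gse1 and Gins2 (23.1). Their mean 50-ng signals were 4.19, 4.21, 4.08, 5.85 and 5.32. The Hoxa window, which holds the starts of 8 Hox genes, had a uCG signal of 3.59.

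Counted by CGs with a read in every replicate, the chosen windows differed from the others more in the share of such CGs than in their reads. At 50 ng, 25.2% of their 708160 CGs had a read in both replicates, against 9.22% elsewhere, a ratio of 2.73. A CG covered in both replicates held 16.5 reads against 13.7, a ratio of 1.21. At 5 ng the shares were 4.08% and 1.19%. In uTOP-seq, 28.8% and 14.1% of CGs had a read in all 3 replicates. The ratios of share and of reads per covered CG were 3.43 and 1.10 at 5 ng. They were 2.20 and 1.39 at 500 ng, which chose the windows. Detection in both replicates depends on depth, so the shares are not comparable between inputs. The split between share and reads moved with the input too, and the 2 were not separated.

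Every sequence feature had more 50-ng reads per CG inside the chosen windows than outside. The windows were chosen for reads per CG in the same assay, so this follows in part from the choice. CGs in islands were left out of exons, introns and sequence outside genes. Relative to the mean of all eligible windows, exons had 3.53 ± 0.0961 (SD, n = 2) inside and 1.92 ± 0.0110 outside, and introns 2.58 ± 0.0169 and 1.08 ± 0.00322. Sequence outside protein-coding genes had 2.34 ± 0.0143 and 0.787 ± 0.00195. The mean of CGs outside genes in the chosen windows was thus above that of exonic CGs elsewhere. Shores, the 2 kb on each side of a CG island, had 2.66 ± 0.0273 and 1.59 ± 0.00332. Soft-masked repeats had 1.56 ± 0.00407 and 0.501 ± 0.00236.

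CG islands were the feature with the least 5hmC in both sets. At 50 ng they had 1.16 ± 0.0150 inside and 0.303 ± 0.00945 outside. The first value rested in part on the 3 highest windows, and without them it was 0.702 ± 0.0100. In uTOP-seq, islands had 2.18 ± 0.0483 (SD, n = 3) inside without those windows and 2.04 ± 0.0369 outside. Islands were also more frequent in the chosen windows: 379 of the 480 held at least 1 (79.0%), while 66.3% of the other windows held none. In the 10% of windows with the highest CG density, however, both sets had a median of 2 islands.

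**Figure D4:**
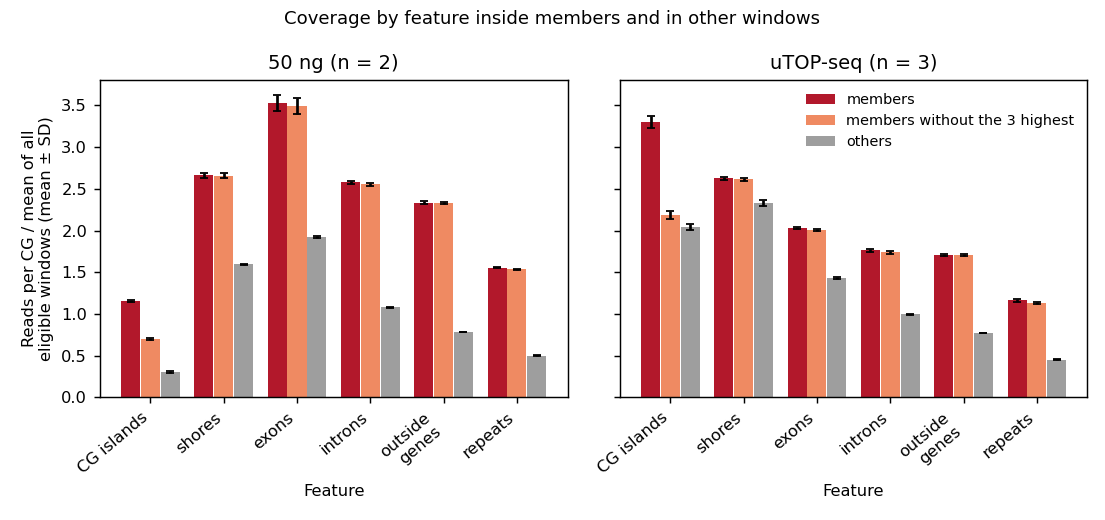
Reads per CG relative to the mean of all eligible windows (mean ± SD over replicates) by feature for 50-ng hmTOP-seq (left, n = 2) and uTOP-seq (right, n = 3), for all chosen windows, for those without the 3 highest, and for the other windows. CGs in islands are left out of exons, introns and sequence outside genes. Exons lead at 50 ng, with 3.53 inside and 1.92 outside, and CG islands are lowest at 50 ng in all sets; in uTOP-seq islands have 2.18 without the 3 highest windows and 2.04 outside.

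Compared with all other windows, the chosen windows were richer in genes. No protein-coding gene started in 126 of them (26.2%), against 58.6% of the other windows. The median share of sequence inside protein-coding genes was 68.8% against 31.9%, and that in exons 8.40% against 0.963%. At like CG density the sets were close. In the 10% of windows with the highest density, chosen and other windows both had a median of 2 protein-coding gene starts. Their median shares there were 71.6% and 68.4% inside genes, and 9.88% and 8.95% in exons. In all, 931 of 20803 protein-coding genes started in a chosen window (4.48%), and 1693 of 51215 genes of any type (3.31%). The 30 windows without any protein-coding gene had a median of 4.43 at 50 ng, and 4.32 was the median of the 47 windows with 6 or more genes. Their uCG signals were 2.38 and 3.08 at the median, in this order.

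In 187 windows a single gene covered at least 50 kb, and 49 lay wholly inside 1 gene. The gene with the most such windows was Gm20388, with 6, at a mean 50-ng signal of 4.77. Pairs of windows lay in Casz1, a zinc finger gene (5.21), Zmiz1 (4.94), Sema5b (4.78), Ppp2r5c (4.74), Ctif (4.71) and Arhgef3 (4.68).

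Gene lists were set against the 4.48% of all protein-coding genes that started in a chosen window, and no list was tested. Of 23 pluripotency factors, 2 did: Esrrb, a nuclear receptor of naive pluripotency, and Dppa3, a factor of early embryos and germ cells known to protect DNA methylation. The Esrrb start had signals of 4.08 and 3.98 at 50 ng, 3.45 and 3.73 at 5 ng and 1.997 in uTOP-seq, and it belonged to a run of 3 chosen windows in which Esrrb was the only protein-coding gene. Dppa3 started in the same window as Gdf3, a TGF-beta family ligand, with 3.90 and 4.08 at 50 ng and 3.01 in uTOP-seq. The windows in which the 23 factors start had a median 50-ng signal of 3.20, against 1.80 for all protein-coding genes.

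Of 34 genes of Nodal, TGF-beta and BMP signaling, 5 started in a chosen window (14.7%). They were the ligand gene Gdf3, the Nodal antagonist Lefty1 (5.04 and 5.02 at 50 ng), the type I receptors Acvr1b (5.55 and 5.69) and Bmpr1a (4.16 and 4.16), and the inhibitory Smad7 (4.62 and 4.57). At 5 ng, Lefty1 had 4.83 and 4.39 and Acvr1b 5.31 and 5.33. Of 37 genes of canonical WNT signaling, 5 did (13.5%): the ligand gene Wnt7b (4.43 and 4.15 at 50 ng), the receptor gene Fzd7 (3.94 and 4.26), the HMG-box factors Tcf7l1 (4.78 and 4.55) and Lef1 (4.15 and 3.98), and the coactivator Pygo2 (4.63 and 4.28). Pygo2 shares its window with Shc1, an adaptor and the only one of 29 FGF and ERK genes.

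None of 17 genes of TET oxidation and base excision repair started in a chosen window, and the median 50-ng signal of their windows was 2.47. Of 15 DNA methyltransferases and methyl-CG readers, Dnmt3a, a de novo methyltransferase (4.55 and 4.45), and Mbd3, a subunit of the NuRD complex (4.30 and 4.08), did. The chromatin lists gave Cbx7 of 30 Polycomb genes (4.91 and 4.89), and among 50 trithorax, acetyltransferase and remodeler genes Chd5, Hdac7 and Kmt2d were in chosen windows, with mean 50-ng signals of 4.92, 4.56 and 4.18.

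Of 39 Hox genes, 9 did (23.1%), but 8 of them share the Hoxa window and the ninth is Hoxc4, whose window had 5.96 and 5.58 at 50 ng, so the count stands for 2 windows. Single genes came from the lists of imprinted (Dlk1, 1 of 29), germline (Piwil2, 1 of 23), bivalent lineage (Gata4, 1 of 41) and LIF signaling genes (Mcl1, 1 of 14). Piwil2 and Gata4 had low uCG signals of 1.60 and 1.61.

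Solute carriers (19 of 329), potassium channels (5 of 79), collagens (3 of 43), ADAM and ADAMTS proteases (3 of 52) and cytosolic ribosomal proteins (4 of 80) lay between 5.00% and 6.98%, near the share of all genes. Keratins gave 2 of 110 and Zfp zinc finger genes 4 of 385. No gene of the clustered protocadherins (57), the olfactory receptors (1128), the vomeronasal receptors (327), the replication-dependent histones (67), the defensins (64) or the serpins (60) started in a chosen window. Olfactory and vomeronasal receptor windows had median 50-ng signals of 0.395 and 0.364, and histone windows 0.716 beside a uCG signal of 2.001.

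Along the genome, the chosen windows formed 342 runs, of which 244 were single windows. The longest had 10 adjoining windows at chr15:78500001-79500000, with 35 protein-coding genes, among them Triobp, Elfn2, Pla2g6 and Csnk1e. Its windows had mean 50-ng signals of 3.86 to 5.23 and a mean of 4.45. A run of 6 windows at chr3:89100001-89700000 held 30 genes, among them Kcnn3, Shc1 and Zbtb7b (mean 4.50 at 50 ng), and one of 5 windows at chr4:148600001-149100000 held Casz1, Pex14, Gm572, Tardbp and Masp2 (4.96). Runs of 4 windows contained Igsf3 and Cd2 (4.90), Nfic and Pip5k1c among 28 genes (4.36), and Piwil2, Slc39a14 and Xpo7 among 15 genes (4.39).

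The signal declined gradually around the chosen windows. Windows whose nearest chosen window was 100 kb away had a median 50-ng signal of 3.05 (n = 628), and the medians were 1.87 at 500 kb (n = 325), 1.32 at 1000 kb (n = 264) and 1.02 at 2000 kb (n = 193). The 5-ng medians at the same distances were 2.80, 1.74, 1.34 and 0.965, and those of uTOP-seq 2.09, 1.45, 1.18 and 1.01.

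**Figure D5:**
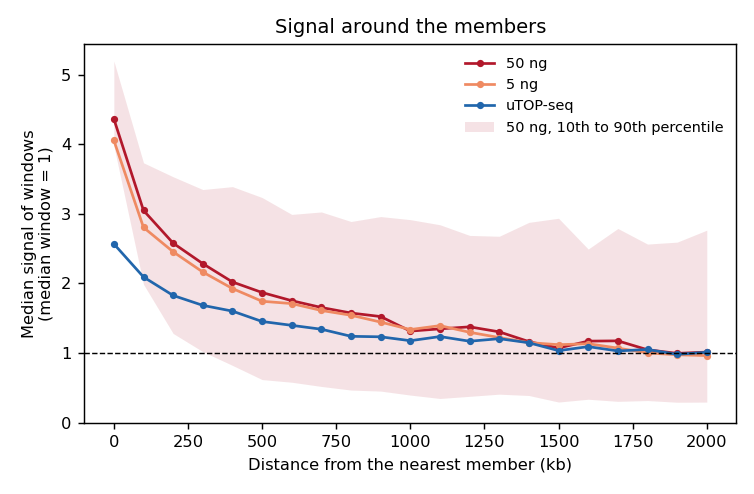
Median signal of windows by distance in kb from the nearest chosen window for 50 ng, 5 ng and uTOP-seq, with the 10th to 90th percentile at 50 ng shaded and the median window of a chromosome at 1. The 50-ng median falls from 4.36 through 3.05 at 100 kb to 1.02 at 2000 kb, and uTOP-seq starts lower, at 2.57.

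The chosen windows were spread unevenly over the chromosomes. They made up 5.45% of the windows of chromosome 15, 5.21% of chromosome 12, 4.25% of chromosome 4 and 3.68% of chromosome 16, but chromosomes 11 and 19 had 1 window each, chromosome 13 had 2 and chromosome 9 none, where the highest window reached 4.27. Chromosome 11 also had the highest median, 3.10 reads per CG at 500 ng, against 1.33 on chromosome 3. With the median of all autosomes as the divisor, 241 of the 480 (50.2%) were chosen again, every chromosome then had a chosen window, and the most on 1 chromosome were 89, against 65 on chromosome 4 here. By distance from the distal chromosome end, the share was highest at 5 to 10 Mb, where 53 of 947 windows were chosen (5.597%), and 0.740% beyond 80 Mb.

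Among the chosen windows, the 5 highest fold changes of the fit, which does not scale by chromosome, were on chromosome 14. The log2 fold changes of 50 ng over uTOP-seq, after the fit described above, were 2.12 ± 0.051 (SE) in a window without a protein-coding gene at chr14:76600001-76700000, 2.08 for Pebp4, 2.07 for a second window without one, 1.999 for Slc39a14, a zinc transporter gene, and 1.95 for Enox1, all with adjusted p-values between 5.85e-14 and 5.30e-13 in edgeR. The first of them had 5.59 and 5.78 at 50 ng and 1.48, 1.49 and 1.58 in uTOP-seq. Chromosome 14 had the lowest median uTOP-seq coverage of the 19 autosomes, 1.66 reads per CG over the 3 replicates against 2.17 to 3.68 on the others. These 5 windows therefore stood on the chromosome with the lowest median uCG coverage, and its part in their rank was not tested. Their uCG signals, which are scaled by that median, were also low for chosen windows. They were 1.04 to 1.58 in the uTOP-seq replicates, beside a median of 2.57 over the chosen windows. In the signal scaled by chromosome, a window on chromosome 16 had the highest ratio of 50-ng to uCG signal of the chosen windows, 3.88. It held no protein-coding gene, and was followed by that of Ly6c1, also 3.88, and then by the first of the chromosome 14 windows with 3.76.

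At the other end, beside the rRNA window, the only chosen window called lower was that of Ubqln4, Ssr2 and Lmna on chromosome 3. It had 4.84 and 4.47 at 50 ng and 4.55 to 4.86 in uTOP-seq (log2 fold change -0.27 ± 0.041 (SE), adjusted p = 2.24e-05 in edgeR). The windows named by Golph3l, Prune1 and Myo10 had log2 fold changes of -0.08, -0.03 and -0.01, with adjusted p-values of 0.121, 0.509 and 0.749. They were thus not distinguished between assays by this fit.

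Between the inputs that were not used for the choice, no chosen window was called different. In edgeR on 5 ng against 50 ng over 23190 windows, 0 of the 480 were called higher and 0 lower, with a background of 0% in both directions. At an unadjusted p under 0.05, 36 of the 480 (7.5%) and 5.92% of all windows passed, and DESeq2 called 1 of the 480. The median log2 fold change was -0.05 in the chosen windows and 0.01 in all. The count changed with the 5-ng replicates fitted: without 5-ng replicate 1 it was 119 (42 higher and 77 lower) and without 5-ng replicate 2 it was 104 (22 higher and 82 lower), where the remaining 5-ng library was assumed to vary like the 50-ng libraries. In these fits 11.7% and 10.3% of all windows were called higher and 12.1% and 11.6% lower, beside 8.75% and 4.58% of the 480 called higher. Without either 50-ng replicate the count was 0. A p above the threshold does not show that the inputs were alike.

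Among the chosen windows, the highest fold change of 5 ng over 50 ng was that of the window of Gm10801 and Gm10800. Its log2 fold change was 0.61 ± 0.097 (SE; edgeR, adjusted p = 0.788), and it is also the window DESeq2 called. Then came Ly6c1 with 0.42, Bcar1 with 0.27, a window without a protein-coding gene on chromosome 12 with 0.26 and Kirrel with 0.25. Among the lowest were Alpl, the gene of an alkaline phosphatase, with -0.40 ± 0.080 (SE; 5.21 and 4.99 at 50 ng, 3.72 and 3.66 at 5 ng), Rcan1 with -0.37, Dlg1 with -0.36 and Atxn7l1 with -0.34. In the Alpl window the replicates of the 2 inputs did not overlap, but the adjusted p in edgeR was 0.788 here too.

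For 50 ng against 500 ng, where the 500-ng reads had chosen the windows, edgeR called 1 window higher, and 0.00421% of the 23728 windows tested are called by this rule. It was the chosen window of Ly6c1 (log2 fold change 0.40 ± 0.045 (SE), adjusted p = 0.00407), and 0 were called lower, a background of 0%. As the choice used one side of this comparison, nothing is read from the count.

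Control libraries without BGT held few reads, and the chosen windows took a larger share of them than of the CGs. The share was 6.58% and 6.30% in the 500-ng controls, 6.65% and 6.64% in the 50-ng controls, and 9.35% and 13.7% in the 5-ng controls, beside 3.47% of the CGs. The 95% Wilson intervals, which cover counting error only, ran from 5.82% to 7.53% for the 500- and 50-ng controls. In the 5-ng controls, 88 of 347 and 386 of 649 such reads fell in the window of Atcay on chromosome 10, where the 5-ng hmTOP-seq replicates had 3435 and 3968 reads. Without 5 windows, namely the 3 highest, that of Atcay and that of Gm10801, which were picked after their values were seen, the share was 5.14% to 5.95% over the 6 controls, beside 3.45% of the CGs. The part of such background in the windows' signal was not tested, and 654 reads at most in all chosen windows of a control library stand beside a median of 5686.5 reads in 1 window of a 500-ng library.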

How the data were processed

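According to the methods, the authors trimmed reads, mapped them to mm10, removed duplicates and assigned reads to CG sites, and the aligner is not given in the sources used here. The deposited values are raw read counts per CG and library, with no normalization and no pooling. All 15 library columns were used. Strands were merged in hmTOP-seq counts, and those of uTOP-seq were summed here. Counted from 0, the authors' positions fell on the C of a CG of GRCm38 at every covered CG of the printed sequences, and 1 was added for printing.

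Counts were summed in 100-kb windows. Windows, gene lists and comparisons were chosen with earlier results of these data known. Genes came from GENCODE vM21, and islands were found in unmasked sequence (at least 200 bp, GC share of at least 50%, CG count at least 0.6 of that expected from the base composition). Window counts were compared with edgeR 4.0.16 (TMM, quasi-likelihood test, Benjamini-Hochberg adjustment over all windows in which every fitted library reached 10 reads, threshold 0.05) and, as an alternative, DESeq2 1.42.0, in R 4.3.3. Other calculations used Python 3.11.15 with numpy 2.4.6, pandas 2.3.3 and scipy 1.17.1. The window test was tested on simulated data, where it found fewer of the known changes for 5 against 50 ng than for 50 ng against uTOP-seq. Replicate numbers were not taken as pairs: over 23164 windows the replicate differences of 50 and 5 ng had a correlation of 0.0031, and those of 50 ng and uTOP-seq of 0.0053.

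Named windows were the 20 highest, the 5 on each side of the threshold, those with a listed gene start, the 5 highest and lowest fold changes of 2 fits, the 5 longest runs with any tie, and the 5 densest and sparsest in CGs. Each was named by the protein-coding gene with the longest overlap, and a few genes and 1 gene list are not reported here. Alternatives covered the choice of windows, normalization, filters, the replicate block and left-out replicates.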

Additional observations from a re-analysis of the deposited data

Results flagged for a closer look

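Chromosome X was outside the autosomal choice. Its windows were examined with the same arithmetic, because some were high relative to the median X window. Of 1649 X windows with at least 200 CGs, 61 (3.70%) were at or above the autosomal threshold of 4.32 relative to the median X window. They held 2.51 reads per CG at 500 ng against 0.000511 in the 500-ng controls. The median X window had 0.442 reads per CG, against 1.33 to 3.10 for the median windows of single autosomes. The 61 windows thus passed on a low divisor, and their median of 2.38 reads per CG was within the range of median autosomal windows. Single windows went above that range, as did the highest one with 3807 reads on 940 CGs. At 50 and 5 ng, the 61 windows had median signals of 5.25 and 5.08, and in uTOP-seq 2.999. The highest X window reached 9.16 and overlapped no protein-coding gene, and windows of Nlgn3, a synaptic adhesion gene (8.48), and Gata1, an erythroid transcription factor gene (7.56), were also among the highest. Bcor, which encodes a BCL6 corepressor, named a pair of windows (6.45 and 6.39).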

How the results depend on the processing

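The median signal and CG density of the chosen windows were recomputed under each alternative, and values below are 50-ng, 5-ng and uCG signal and CGs per kb, in this order. Choosing the top 1% gave 4.70, 4.36, 2.67 and 14.8, and the top 5% gave 3.84, 3.59, 2.38 and 14.0. The median of all autosomes gave 4.27, 4.07, 2.63 and 15.4, and at least 400 CGs gave 4.22, 3.95, 2.53 and 14.3. Reads per kb in place of reads per CG gave 9.24, 8.58, 5.79 and 16.3, with 336 of the 480 windows chosen again. Windows shifted by 50 kb moved the 5-ng signal to 4.10. Capping single CGs kept 468 of the 480, and the medians without the 3 highest windows stayed within the spread of replicates. Leaving out single 500-, 50-, 5-ng or uTOP-seq replicates gave 4.33 to 4.40 at 50 ng, 4.06 to 4.09 at 5 ng, 2.57 to 2.58 for uCG and 14.3 to 14.4 CGs per kb.

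Of the 480, 462 to 469 were called higher at 50 ng than in uTOP-seq without single replicates, 471 with DESeq2, and 467 with the replicate block, against 33.7% to 36.1%, 37.3% and 34.1% of all windows. With 5 ng in place of 50 ng, the windows called in either direction fell from 17494 to 10218 in all. For 5 against 50 ng the replicate block and DESeq2 each called 1, and leaving out single replicates gave 0 to 119, where in the last case 11.7% of all windows were called higher and 12.1% lower. Genes of any type gave 1693 starts. Island coverage at 50 ng without the 3 highest windows was 0.702, and the share of control reads fell from 7.80% to 5.45% without 5 windows. Causes were not tested. The median of the other windows was 0.654 reads per CG in the deeper 50-ng replicate, which limits statements on single CGs.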
